A study of Mus musculus with 2 samples.

Results

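Imprinted genes are genes read mainly from the copy inherited from 1 parent. A list of 43 of them, fixed by symbol, was followed in RNA from the midbrain of mouse embryos, and 42 had values among the 43346 Ensembl genes measured, while Peg13 was not analysed here. By general knowledge 15 of the 43 are maternally expressed and 24 paternally expressed, and 4 (Blcap, Gnas, Grb10 and Inpp5f) switch with the transcript or the cell type. Total RNA came from mice of strain B6NCrl at embryonic day 16.5, in 1 group of 2 libraries that the labels call biological replicates 1 and 2. Each was a pool of healthy embryos of both sexes with no treatment named, and both carry the same donor identifier. Replicate 2 was pooled from 37 embryos, and how many made up replicate 1 is not given. According to the labels, every library was built from 10 ng of RNA above 200 nucleotides with spike-in sequences added.

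Imprints are DNA methylation marks laid down differently in egg and sperm, and they are kept on their own chromosome through the life of the embryo. Most imprinted genes lie in clusters, in which a marked control region and often a long non-coding RNA decide which neighbours are silent on which chromosome. Many of them act in growth, in the placenta and in the developing brain, and some are imprinted in neurons only. In a single inbred strain the reads of the maternal and the paternal chromosome cannot be told apart, so the class of each gene is background knowledge and the values are totals over both copies.

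With 1 group there is no comparison between conditions and no p-value. Levels are given in TPM (an abundance corrected for length and scaled to one total per library, so that levels of different genes can be set side by side) for replicate 1 and then replicate 2. A value with ± gives the average of the libraries and its SD (n = 2), which covers the spread between these pools only. Ensembl genes held 31355198 expected counts in replicate 1 and 35759518 in replicate 2. Of 10 genes that mark the midbrain, 9 reached 1 TPM in each library, among them the transcription factors Otx2 (56.3 and 64.5 TPM) and Gata3 (71.4 and 77.2 TPM). Markers of neighbouring tissue were present too. The 8 choroid plexus markers summed to 463 and 391 TPM, most of it from the thyroid hormone carrier Ttr (410 and 341 TPM). Of 11 hypothalamus markers 9 reached 1 TPM, and they were led by Avp (64.3 and 64.9 TPM). The 7 red cell markers summed to 12790 and 11290 TPM, the 10 of meninges and fibroblasts to 316 and 334 TPM, and the 10 of endothelium and pericytes to 227 and 212 TPM. The 9 markers of muscle and cartilage had a median of 0.19 and 0.18 TPM. The part of such tissue in the levels below was not tested, and in bulk RNA fewer cells of a type and less RNA per cell cannot be told apart.

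The imprinted genes of this list were widely and often strongly expressed in the midbrain. The list was chosen with earlier results of these data known, so the shares below describe it and not imprinted genes at large. Detection, set at 1 TPM or more in each library, was reached by 40 of the 42, beside 35.1% of all Ensembl genes and 62.1% of protein-coding genes. At least 10 TPM was reached by 29, beside 21.3% of all Ensembl genes, and at least 100 TPM by 12, beside 4.02% of all Ensembl genes and 7.75% of protein-coding genes. Their median was 39.8 TPM, against 0.105 TPM over all Ensembl genes and 5.29 TPM over protein-coding genes. Among detected genes alone, the median was 46.4 TPM for the 40 imprinted genes and 16.9 TPM for all. In a second list of imprinted genes, given below, 29 of 36 measured genes were detected and the medians were 15.3 and 19.4 TPM. Together the 42 genes of the first list took 1.79% and 1.74% of the TPM of Ensembl genes. That share was uneven, since Nnat alone made up 49.8% and 46.8% of it and the 5 highest genes 81.4% and 80.7%. The plot of levels by locus shows this spread.

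**Figure D1:**
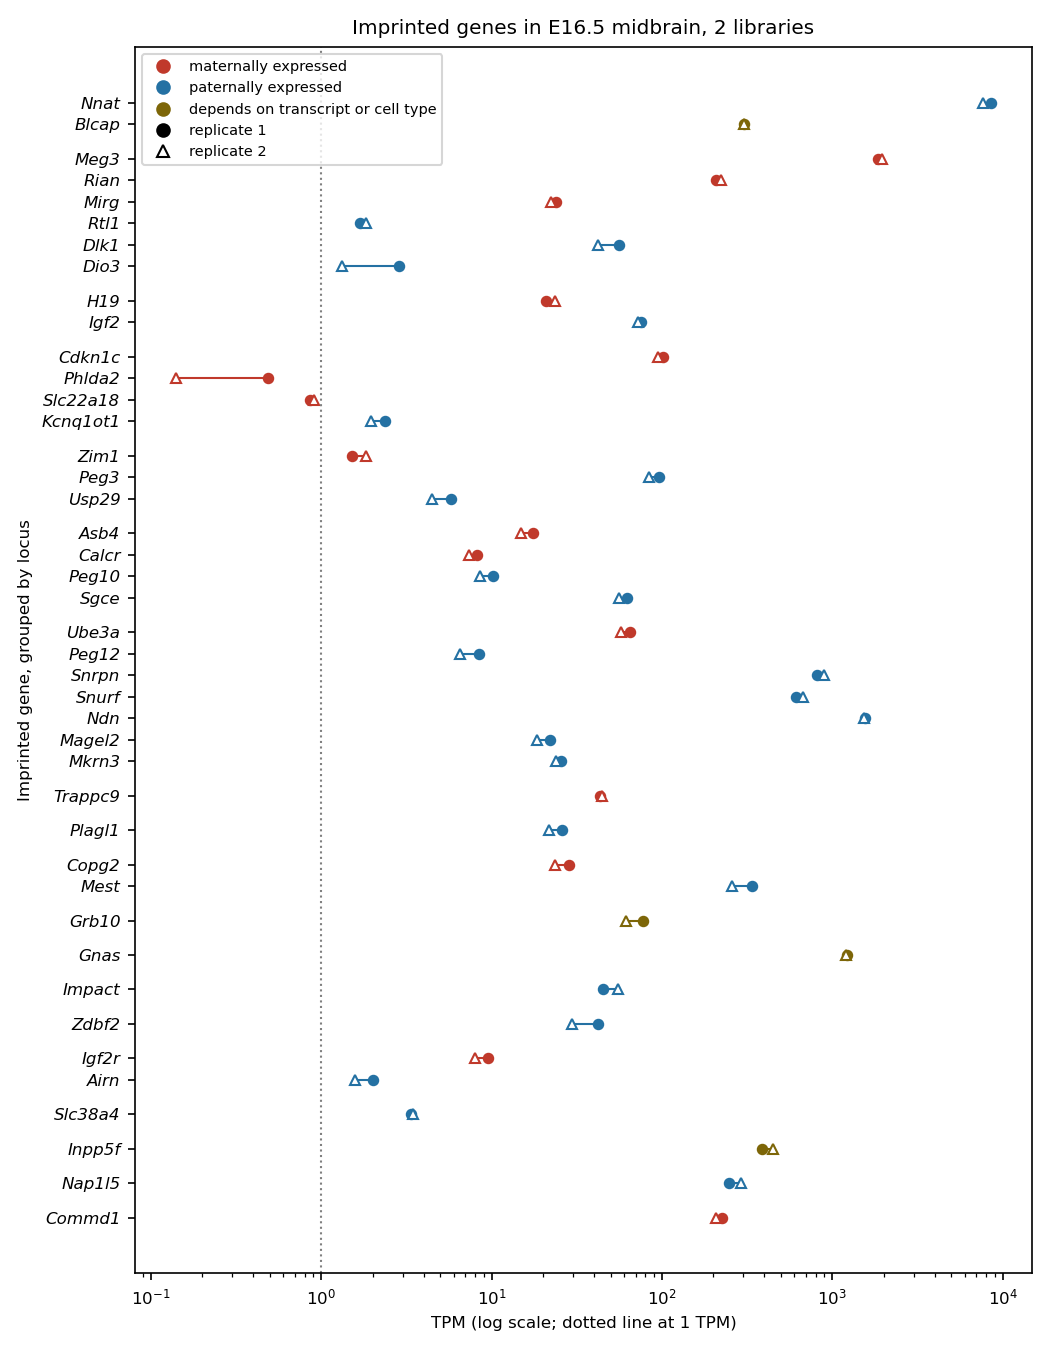
Level of the 42 imprinted genes with values, in TPM on a log axis, grouped by locus; filled circles are replicate 1, open triangles replicate 2, and colour gives the class known for the gene. Nnat stands highest at 8576 and 7713 TPM, and only Phlda2 and Slc22a18 lie left of the dotted line at 1 TPM in both libraries.

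Nnat encodes neuronatin, a small membrane protein of the endoplasmic reticulum in developing neurons, and is paternally expressed. It had 8576 and 7713 TPM (8145 ± 611) and ranked sixth among all Ensembl genes by mean TPM. The gene (chromosome 2, 157560078 to 157562522, plus strand, GRCm38) sits inside an intron of Blcap, which runs on the opposite strand, and the 2 genes share 0 exon bases. Blcap, a small protein gene first described in bladder cancer, had 301 and 303 TPM (302 ± 1.14). The inner gene was thus 26.9-fold higher than its host (log2 4.75 ± 0.11). In the host, 97.9% ± 0.339 of the TPM was assigned to transcripts whose annotated starts form a group that begins 4913 bases inside the gene. Only 0.165% ± 0.0636 was assigned to those at the outermost annotated start.

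The locus between Dlk1 and Dio3 on chromosome 12 was dominated by its maternally expressed non-coding RNAs. Meg3 (109541001 to 109571726, plus strand), the long non-coding RNA at its head, had 1843 and 1949 TPM (1896 ± 74.5). Rian, which carries small nucleolar RNAs in its introns, had 207 and 221 TPM (214 ± 10.4), and Mirg, a host of microRNAs, 23.9 and 22.3 TPM (23.1 ± 1.11). Along the chromosome each RNA was lower than the one before it, with a step of 8.86-fold (log2 3.15 ± 0.01) and then 9.25-fold (log2 3.21 ± 0.14). In both libraries each of these steps was far wider than the distance between the replicates.

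The paternally expressed protein genes of the same locus were low by comparison. Dlk1, a membrane protein of the Notch ligand family that holds precursor cells undifferentiated, had 55.8 and 42.2 TPM (49.0 ± 9.60). Rtl1, a protein gene derived from a retrotransposon, had 1.69 and 1.84 TPM, and Dio3, the enzyme that inactivates thyroid hormone, 2.85 and 1.32 TPM. Summed over the locus, the 3 maternally expressed genes reached 2074 and 2193 TPM and the 3 paternally expressed ones 60.4 and 45.4 TPM, a ratio of 40.7-fold (log2 5.35 ± 0.35). Meg3 alone was 39.0-fold higher than Dlk1. Within Meg3, 70.5% ± 0.396 of the TPM came from transcripts at its first start, led by the transcript Meg3-205 at 52.8%, and 25.02% ± 0.849 from transcripts whose starts lie 3497 to 5444 bases inside the gene. In expected counts, which are not per length, transcripts at the first start held 48.0% and 48.7%. By these counts Meg3-209, a transcript of 14548 bases that starts 4397 bases inside, led with 30591 and 36613, against 25023 and 31301 for Meg3-205.

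This locus also carries a large group of microRNAs. The RefSeq table (GRCm38.p6) places 58 hairpins between Dlk1 and Dio3, 54 of them on the plus strand, which is the strand of Meg3, Rian and Mirg. They yield 113 mature names with 104 different seeds, and 9 seeds are shared by 2 names each. Of the 7 hairpins inside Rtl1, 6 lie on the strand opposite to it, so their microRNAs are complementary to the Rtl1 transcript over their whole length. Mirg holds 14 hairpins and Rian 3, all on their own strand. The mature forms listed here show both arrangements, with the seed (bases 2 to 8) in capitals and sequences from RefSeq. The first 5 are antisense to Rtl1, and the next 4 come from Mirg, where miR-453 and miR-496a-5p share a seed.
mmu-miR-431-5p: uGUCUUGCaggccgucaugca
mmu-miR-433-3p: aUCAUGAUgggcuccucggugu
mmu-miR-127-3p: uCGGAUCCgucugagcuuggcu
mmu-miR-434-3p: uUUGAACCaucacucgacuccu
mmu-miR-136-5p: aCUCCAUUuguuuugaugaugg
mmu-miR-134-5p: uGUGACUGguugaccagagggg
mmu-miR-154-3p: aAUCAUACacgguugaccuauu
mmu-miR-453: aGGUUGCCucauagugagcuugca
mmu-miR-496a-5p: aGGUUGCCcaugguguguuca

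The libraries do not report on these microRNAs themselves. RNA below 200 nucleotides was left out of them, and of 59 microRNA entries of the gene tables in the locus 56 had 0 counts in both libraries. The remaining 3 entries held 0 counts in replicate 1 and 4 in replicate 2. The values of Mirg and Rian are therefore those of the long host RNAs.

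On distal chromosome 7, Igf2 and H19 lie side by side and share enhancers. H19, a maternally expressed non-coding RNA, had 20.8 and 23.5 TPM (22.2 ± 1.90). Igf2, a fetal growth factor counted here as paternally expressed with partial bias, had 75.9 and 72.8 TPM (74.3 ± 2.14). H19 thus stood at log2 -1.75 ± 0.17 relative to Igf2. The TPM of Igf2 (142650766 to 142666816, minus strand) was divided among transcripts with several annotated starts. Igf2-208, an annotated non-coding transcript that starts 13786 bases inside the gene, took 36.4% and 43.5% of its TPM, Igf2-203 from the outermost start 40.0% and 30.8%, and Igf2-202, which starts 9350 bases inside, 16.0% and 16.7%. The leading transcript by TPM thus differed between the libraries. By expected counts Igf2-202 led in both, with 541 and 629, against 439 and 587 for Igf2-208 and 309 and 267 for Igf2-203.

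Among the genes of the list in the neighbouring Kcnq1 cluster, 1 was strongly expressed. Cdkn1c, the cyclin-dependent kinase inhibitor p57 that stops precursor cells from dividing, is maternally expressed and had 101.5 and 94.3 TPM (97.9 ± 5.11). Phlda2, a placental growth restrainer, and Slc22a18, a membrane transporter, are maternally expressed too and were below 1 TPM in both libraries. Phlda2 had 6 and 2 expected counts and Slc22a18 11 and 22, so neither level is well determined at this depth. Kcnq1ot1, the paternally expressed RNA that silences the cluster, had 2.37 and 1.95 TPM (2.16 ± 0.297). Per length, Cdkn1c was 45.5-fold higher than Kcnq1ot1 (log2 5.51 ± 0.12), although Cdkn1c had 3385 and 3665 expected counts and the long Kcnq1ot1 3702 and 3553.

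On proximal chromosome 7 paternally expressed RNA prevailed. Peg3, a zinc finger protein of growth and maternal behaviour, had 96.8 and 84.5 TPM (90.6 ± 8.70). Usp29, a ubiquitin protease gene annotated beside it on the other strand, had 5.81 and 4.49 TPM. Zim1, a maternally expressed zinc finger gene next to Peg3, had 1.51 and 1.82 TPM. Peg3 was 17.7-fold higher than Usp29 and 54.5-fold higher than Zim1. The promoter windows of Peg3 and Usp29 overlap by 263 bases on opposite strands. The single Usp29 model that was quantified starts 230577 bases downstream of that annotated start, outside the window.

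The region of Prader-Willi and Angelman syndromes, also on chromosome 7, was the second large source of imprinted RNA. Ndn (62346569 to 62350262, plus strand) encodes necdin, a protein of neurons that have left the cell cycle, and had 1566 and 1536 TPM (1551 ± 20.9). Snrpn, a splicing protein of neurons, had 811 and 891 TPM (851 ± 56.3), and Snurf, the short reading frame at its 5' end, 610 and 669 TPM (639 ± 41.8). All 31-base words of Snurf also occur in other genes and all its exon bases lie within Snrpn, so the division of reads between these 2 is uncertain. The Snurf model has 216 bases and 1320 and 1687 expected counts, against 27677 and 35379 for Snrpn. Snrpn over Snurf was thus log2 0.41 per length and 4.39 in expected counts. Magel2, a relative of necdin, had 22.0 and 18.6 TPM, and Ndn was 76.8-fold higher (log2 6.26 ± 0.15). Mkrn3, a RING finger protein known for its part in the timing of puberty, had 25.4 and 23.9 TPM, and Peg12, a gene of the Frat family in the Wnt pathway, 8.42 and 6.53 TPM. All 6 of these genes are paternally expressed.

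Ube3a, the ubiquitin ligase lost in Angelman syndrome, is the maternally expressed gene of the region, and its imprint is known from neurons only. It had 65.3 and 57.3 TPM (61.3 ± 5.66), which is log2 -3.80 ± 0.23 relative to Snrpn. Summed over the region, maternally expressed RNA came to 65.3 and 57.3 TPM and paternally expressed RNA to 3042 and 3144 TPM. Snhg14, the long paternal RNA that runs against Ube3a, had 167 and 156 TPM and covers 8.74% of its exon bases. Whether the counting used strand is not given in the sources used here, so reads in that overlap cannot be assigned to one strand.

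The Peg10 and Sgce locus on chromosome 6 had moderate levels throughout. Asb4, a maternally expressed ubiquitin ligase adaptor, had 17.4 and 14.9 TPM, and Calcr, the calcitonin receptor, which is maternally expressed in brain, 8.25 and 7.40 TPM. Sgce, the paternally expressed epsilon-sarcoglycan of myoclonus dystonia, had 62.0 and 56.1 TPM. Peg10, a retrotransposon-derived gene needed in the placenta, had 10.2 and 8.51 TPM, which is log2 -2.67 ± 0.08 relative to Sgce. Its 3 main transcripts stood in a different order in each library.

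Further along chromosome 6, Copg2, a coat protein of transport vesicles counted here as maternally expressed, had 28.5 and 23.5 TPM. Mest, a paternally expressed enzyme of the hydrolase family abundant in the embryo, had 340 and 256 TPM (298 ± 59.0), 11.4-fold above Copg2. The 2 genes meet tail to tail on opposite strands and share 912 exon bases, and 22.0% of the 31-base words of Mest also occur in Copg2. Reads in this stretch cannot be told apart without strand. On chromosome 17, Igf2r, the maternally expressed receptor that clears Igf2, had 9.58 and 8.0 TPM. Airn, the paternal non-coding RNA that silences it, had 2.02 and 1.57 TPM from only 27 and 28 expected counts. The 6 Airn models quantified have 435 to 1375 bases each, within an annotated span of 12741311 to 12860136. Reads outside these models are not in the Airn value, which covers the short models only. Igf2r itself is known to be read from both copies in neurons.

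The remaining genes stand alone in this list. Nap1l5, a paternally expressed nucleosome assembly protein, had 248 and 291 TPM. Commd1, a copper metabolism gene with maternal bias in brain that hosts a paternal retrogene in an intron, had 226 and 207 TPM. Both stood among the 12 genes at 100 TPM or more. Impact, a paternally expressed brake on the amino acid starvation response in neurons, had 45.3 and 55.0 TPM. Trappc9, a vesicle trafficking gene with maternal bias in brain, had 43.01 and 44.6 TPM. Impact and Trappc9 thus lay near the median of the list. The zinc finger protein Plagl1, a regulator of other imprinted genes, had 26.1 and 21.9 TPM, and Zdbf2, which is needed for growth and feeding, 42.3 and 29.5 TPM. Slc38a4, an amino acid transporter known from placenta and liver, had 3.36 and 3.44 TPM. These last 3 are paternally expressed, and Slc38a4 was the lowest of them in both libraries.

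Several of these genes had most of their TPM in transcripts with an annotated start other than the outermost one. Starts here and below are those of annotated transcripts among which the reads were divided. First bases of the RNA itself were not measured. One such gene was Inpp5f, a lipid phosphatase gene (chromosome 7, 128611328 to 128696425, plus strand) with 389 and 447 TPM. Transcripts that start 76218 to 77161 bases inside the gene made up 97.2% ± 0.573 of its TPM, at 376 and 436 TPM, while those from the gene's own start had 10.7 and 10.2 TPM. The leading transcript, Inpp5f-208, has 6 exons and 2609 bases and took 91.2% ± 1.22. A short paternally expressed form starting inside this gene is known from mouse brain, and the full-length form is known to be read from both copies.

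Gnas (chromosome 2, 174284320 to 174346744, plus strand) gives the stimulatory G protein alpha subunit and several imprinted products from upstream starts, and had 1227 and 1204 TPM (1216 ± 15.7). The group of starts that begins 45686 bases inside the gene gave 94.4% ± 0.255 of this, led by Gnas-208 at 88.2%. The outermost start, where the maternally expressed neuroendocrine secretory protein begins, gave 1.47% ± 0.0212, which is 18.1 and 17.5 TPM. The next start, 13539 bases inside, gave 0.215%, and the third group, which begins 43250 bases inside, 3.23% ± 0.106. Imprinted upstream transcripts of Gnas were thus minor parts of a gene whose main product is imprinted in few tissues only.

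Grb10, an adaptor that restrains insulin and growth factor signalling, is maternally expressed in most tissues and paternally expressed in neurons from starts further downstream. It had 77.3 and 61.3 TPM (69.3 ± 11.3). The upstream transcript Grb10-201 gave 65.0% ± 2.33 of its TPM and the 2 transcripts that start 11951 and 12359 bases inside 28.3% ± 0.24. That downstream share rests mainly on Grb10-207, a model of 430 bases with 109 and 99.1 expected counts, whereas Grb10-201 had 4497 and 4370. Another downstream transcript, Grb10-203 of 4755 bases, starts 10712 bases inside the gene. It gave 5.92% ± 1.96 of the TPM, with 486 and 279 expected counts. Since TPM divides by length, the share of 28.3% rests mainly on the short model Grb10-207. The same holds for Zdbf2, where a 611-base transcript took 78.5% of the TPM, yet the transcript of 12629 bases held 2088 and 1703 of the 2403 and 1976 expected counts.

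**Figure D2:**
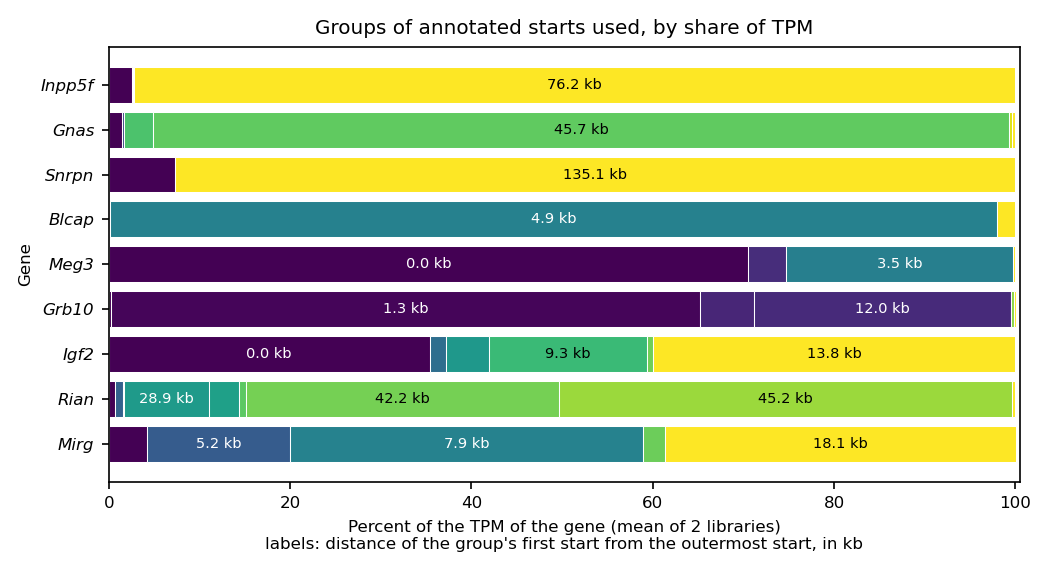
Share of each gene's TPM by group of annotated starts, mean of the 2 libraries, for 9 imprinted genes with more than 1 group; each segment is a group of starts that lie within 1000 bases of the next, darker for those nearer the outermost one, and labels give the distance of the group's first start in kb for segments of at least 9%. By TPM, transcripts with inner annotated starts made up almost all of Inpp5f and Gnas (97.2% and 94.4%), and those with the outermost starts most of Meg3 (70.5%). In expected counts the outermost starts of Meg3 held 48.0% and 48.7%.

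Among imprinted genes with 5 TPM or more and several transcripts, 21 of 25 had the same leading transcript in both libraries. The exceptions were H19, Igf2, Peg10 and Rian. In 17 of the 25 the leading transcript took at least 50% in both libraries, and the median share was 65.0%. In 17 of the 25 the transcript with the highest mean share of TPM also held the most expected counts in both libraries. A further 12 of the 42 genes have 1 annotated transcript only.

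Taking all loci together, the summed TPM of the 15 maternally expressed genes was 2598 and 2676 and that of the 23 measured paternally expressed genes 12639 and 11789. The ratio was log2 -2.21 ± 0.10, which means 4.63-fold more paternally expressed RNA, and in expected counts, which are not per length, it was log2 -1.47. That figure rested on few genes, since Meg3 made up 71.0% and 72.8% of the maternal sum and Nnat 67.9% and 65.4% of the paternal one. Without Nnat the ratio was log2 -0.63 ± 0.03, or 1.54-fold, and without both Nnat and Meg3 it was log2 -2.46 ± 0.04. Medians were 23.9 and 23.5 TPM for the maternally expressed genes and 42.3 and 29.5 TPM for the paternally expressed ones, and the paternal medians are the values of Zdbf2, the middle gene in each library. Of the maternally expressed genes 13 of 15 were detected and 10 reached 10 TPM, against 23 of 23 and 15 of the paternally expressed ones.

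By locus the balance pointed both ways. Maternally expressed RNA was higher in 3 of the 8 loci with both classes, by 46.0-fold in the Kcnq1 cluster, 40.7-fold between Dlk1 and Dio3 and 4.92-fold at Igf2r and Airn. Paternally expressed RNA was higher in the other 5, by 57.6-fold around Peg3, 50.5-fold in the Prader-Willi and Angelman region, 11.4-fold at Mest, 3.36-fold at Igf2 and 2.86-fold at Peg10 and Sgce. The 8 log2 ratios ran from -5.85 to 5.53, while the largest SD between the libraries was 0.35. Per length, each locus had the same sign in both libraries. In expected counts the Kcnq1 cluster had no clear excess, with 3402 and 3689 maternally expressed against 3702 and 3553 paternally expressed (mean log2 -0.034), and the other 7 loci kept their sign. At Igf2r and Airn both measures rest on the short Airn models alone.

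**Figure D3:**
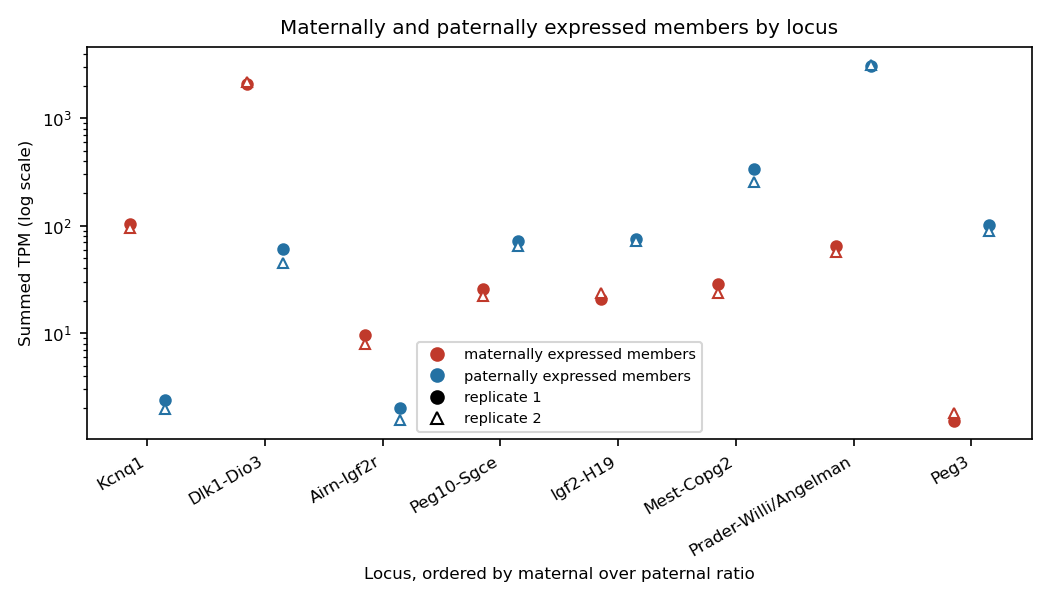
Summed TPM of maternally (red) and paternally (blue) expressed genes in the 8 loci that hold both, on a log axis; filled circles are replicate 1 and open triangles replicate 2. The classes do not overlap in any locus, and the order turns over from 46.0-fold more maternal RNA in the Kcnq1 cluster to 57.6-fold more paternal RNA around Peg3. These ratios are per length, and in expected counts the Kcnq1 cluster stood at log2 -0.034.

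Between the 2 pools, 2 of the 41 imprinted genes with a mean of at least 10 expected counts differed by 1.5-fold or more. Over all 17773 such genes 8.94% did. Of the 2, 1 was higher in replicate 1 (3.9% of all) and 1 lower (5.04% of all). The shares are not matched for counts, since 33 of the 41 had a mean of at least 500, against 9456 of the 17773. The gene that was higher was Dio3, with 98 expected counts in replicate 1 and 49 in replicate 2, a ratio of 2.26-fold (log2 1.18, 95% counting interval 0.67 to 1.71). The lower one was Slc22a18, with 11 and 22 expected counts (log2 -0.79) and an interval of -2.01 to 0.29 that spans 0. Such intervals cover counting error only, not the difference between embryos.

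Smaller shifts were measurable in abundant genes. Over the 33 with a mean of at least 500 expected counts the median absolute log2 ratio was 0.15, beside 0.09 over 9456 such genes of the tables. Dlk1 was higher in replicate 1 at log2 0.48 (0.37 to 0.60), Zdbf2 at 0.47 (0.38 to 0.55) and Mest at 0.44 (0.40 to 0.48). Impact was lower in replicate 1 at log2 -0.32 (-0.39 to -0.25), Nap1l5 at -0.27 (-0.31 to -0.22) and Inpp5f at -0.23 (-0.26 to -0.21). In all, 24 of the 41 were higher in replicate 1, beside 48.1% of all such genes, and the median log2 ratio was 0.07 against -0.01 over all. The counting interval lay above 0 in 18 genes and below 0 in 10, and it spanned 0 in 13. By class, 8 of 14 maternally expressed genes and 15 of 23 paternally expressed ones were higher in replicate 1, with medians of 0.05 and 0.12.

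**Figure D4:**
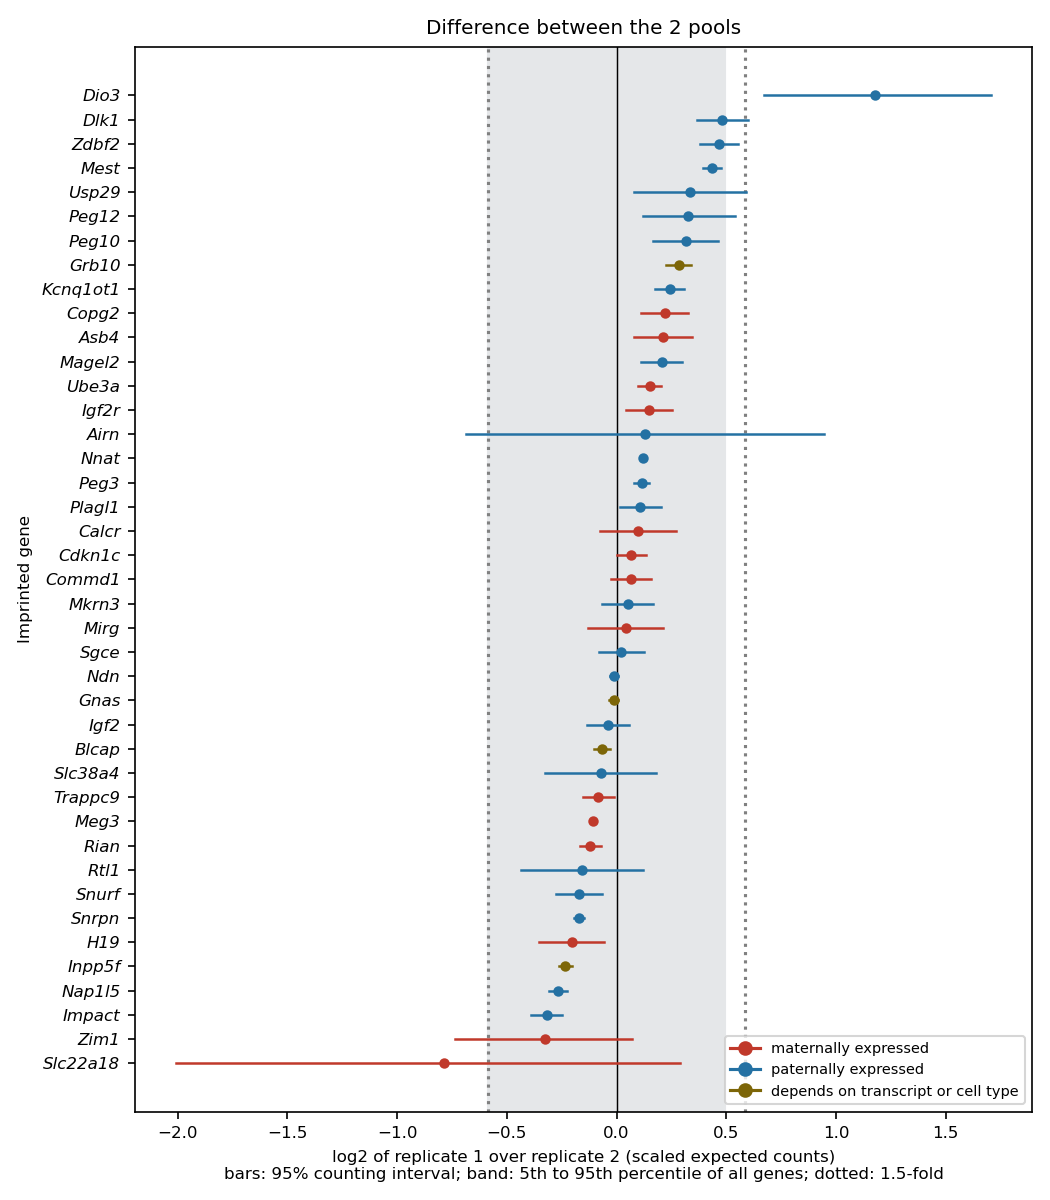
Log2 ratio of replicate 1 over replicate 2 for the 41 imprinted genes with enough counts, with 95% counting intervals; the band spans the 5th to 95th percentile of all genes and the dotted lines mark 1.5-fold. Dio3 is the only gene beyond the band to the right (log2 1.18), and Slc22a18 lies beyond it to the left with an interval that reaches 0.29.

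Markers of some cell types also differed between the pools, and the 4 lists with the largest median shifts come first. Over all genes with enough counts 48.1% were higher in replicate 1. All 10 markers of dividing cells were higher in replicate 1, with a median log2 ratio of 0.41 and summed levels of 272 and 215 TPM. Of the 10 markers of astrocytes and radial glia 8 were lower in replicate 1, with a median of -0.52 and sums of 1991 and 2716 TPM. Midbrain identity markers were lower in 8 of 10 (median -0.19, sums of 243 and 272 TPM) and hypothalamus markers higher in 8 of 11 (median 0.49). The hypothalamus sums, 97.4 and 99.6 TPM, do not show this. Most of each came from Avp (64.3 and 64.9 TPM, log2 -0.05). The hormone gene Oxt went the other way from the median, with 0.79 TPM in replicate 1 and 12.7 TPM in replicate 2. Neuron markers split into 5 higher and 5 lower (median -0.04), as did dopamine neuron markers (median -0.15). Red cell markers were higher in 6 of 7 (median 0.165). Those of choroid plexus, meninges and fibroblasts, endothelium and pericytes, and muscle and cartilage had medians between 0.02 and 0.15. None of these lists had a marker at 0 in both libraries. Their part in the shifts of Dlk1, Dio3, Mest, Zdbf2, Impact, Nap1l5 and Inpp5f was not tested.

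Genes that keep or erase imprints were nearly all expressed. Of 18 on that list, 15 were detected, beside 62.1% of protein-coding genes, with a median of 35.3 and 34.4 TPM. Zfp57, the zinc finger protein that binds methylated imprint control regions, was the highest at 265 and 235 TPM. Its cofactor Trim28 had 165 and 154 TPM, the DNA methyltransferase Dnmt3a 100.8 and 89.8 TPM, and the histone methyltransferase Ehmt2 86.7 and 83.6 TPM. Dnmt3l, which helps to lay down imprints in germ cells, and Dppa3, which guards them in the fertilized egg, were at 0 in both libraries, and Ctcfl, a germ cell relative of Ctcf, had 0.05 and 0.09 TPM. All 15 genes of the list with enough counts were higher in replicate 1, beside 48.1% of all such genes, none by 1.5-fold, with a median log2 ratio of 0.10.

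**Figure D5:**
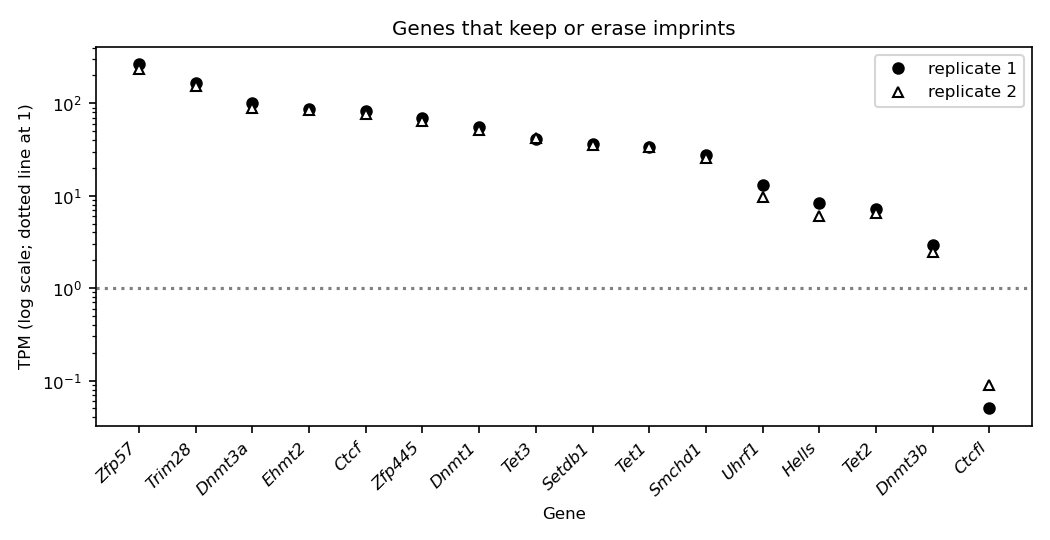
Level of 16 of the 18 genes that keep or erase imprints, in TPM on a log axis; filled circles are replicate 1 and open triangles replicate 2, and Dnmt3l and Dppa3 at 0 are left out. Zfp57 leads at 265 and 235 TPM, and Ctcfl is the single plotted gene under the dotted line at 1 TPM.

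Zfp57 is known to bind TGCCGC where its CpG is methylated, so the promoters of the imprinted genes were searched for these letters on both strands (GCGGCA on the other). RefSeq windows (GRCm38.p6, 250 bases before to 50 after the start) were found for 35 of the 43 genes, and 14 of the 35 (40.0%) held the motif in at least 1 window. Of all 27025 genes with such windows, 13.1% did. Per window, the motif was in 15 of 54 windows (27.8%), beside 11.6% of all 32851. Overlapping windows count separately, such as those of Mest that begin at 30737800 and 30737803 and each hold 2 matches. The single window of Snurf is also a window of Snrpn and holds the motif, so that both genes are counted for 1 match, and 13 of 34 genes hold it without Snurf. The CpG count differed as well, with a median of 17 in the richest window of each imprinted gene and 8 over all genes, and its part in this difference was not tested. The motif was found in 5 of 12 maternally expressed genes, 8 of 19 paternally expressed ones and 1 of 4 of the others. A match says only that the letters are there, and their absence says only that they are not in this window. The 250 bases before the start are shown for 4 genes that hold the motif there and whose levels are given above, with the motif in capitals. The same stretch was drawn for Nnat and for a window of Snrpn, had 0 matches in each and is not shown.
Meg3, chr12:109540746-109540995, plus strand: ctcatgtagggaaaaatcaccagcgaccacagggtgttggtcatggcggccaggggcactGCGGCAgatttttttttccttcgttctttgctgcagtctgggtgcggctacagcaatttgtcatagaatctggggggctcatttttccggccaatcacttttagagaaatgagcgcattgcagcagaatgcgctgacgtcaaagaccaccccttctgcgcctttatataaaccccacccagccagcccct
Mest, chr6:30737800-30738049, plus strand: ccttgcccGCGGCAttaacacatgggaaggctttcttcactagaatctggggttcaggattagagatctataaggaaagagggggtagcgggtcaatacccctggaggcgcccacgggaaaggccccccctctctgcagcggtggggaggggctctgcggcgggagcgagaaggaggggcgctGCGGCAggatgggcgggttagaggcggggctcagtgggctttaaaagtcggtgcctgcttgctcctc
Nap1l5, chr6:58907127-58907376, minus strand: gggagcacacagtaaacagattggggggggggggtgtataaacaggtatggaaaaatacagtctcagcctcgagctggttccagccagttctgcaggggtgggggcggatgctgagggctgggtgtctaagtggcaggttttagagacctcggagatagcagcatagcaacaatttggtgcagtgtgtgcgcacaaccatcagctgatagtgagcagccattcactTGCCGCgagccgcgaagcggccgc
Plagl1, chr10:13090582-13090831, plus strand: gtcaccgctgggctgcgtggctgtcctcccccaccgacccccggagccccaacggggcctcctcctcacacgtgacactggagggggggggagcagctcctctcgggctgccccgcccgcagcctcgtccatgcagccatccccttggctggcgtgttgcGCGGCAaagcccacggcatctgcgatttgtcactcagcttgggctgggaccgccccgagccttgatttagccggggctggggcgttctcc

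Partners and relatives of the imprinted gene products were nearly all present. Of 17 genes of insulin-like growth factor signalling 16 were detected, beside 62.1% of protein-coding genes. The highest were the binding protein Igfbp2 (207 and 219 TPM), its relative Igfbp4 (99.5 and 97.1 TPM), Igf2 and Grb10. Igf2 was 8.49-fold higher per length than Igf2r. All 11 measured genes of a list of partners and relatives of necdin, Magel2 and Ube3a were detected, beside the same 62.1%. Maged1, of the same family as necdin, had 944 and 895 TPM, and Maged2 371 and 396 TPM. Magee1, another family member, followed at 232 and 241 TPM, and Vps35, a subunit of the retromer sorting complex that Magel2 acts on, at 177 and 171 TPM.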

How the data were processed

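Total RNA-seq tables of 2 libraries were used as deposited, 1 gene table and 1 transcript table each. Reads were mapped to mm10 and quantified on GENCODE M4 with spike-in sequences, per the deposited readme. Aligner, quantifier and strand setting: not given in the sources used here. Per the file headers, the deposited expected count is an estimate that divides shared reads among features. TPM and FPKM were also deposited by the authors and are scaled by effective length and by library. Transcript shares are, per the file headers, a percent of the TPM of the gene, and the posterior means deposited beside them served as alternatives. The deposited credibility bounds and posterior SD, on the same signal scale, are not printed.

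Symbols and coordinates came from GENCODE M21 (GRCm38, the assembly of mm10), joined by Ensembl identifier without version, and 42 of 43 genes had values. The members, their classes, the lists and the thresholds were chosen with earlier results of these data known. Ratios between pools used expected counts plus 0.5, scaled by TMM (edgeR 4.0.16, on rounded counts), for genes with a mean of at least 10. Their 95% intervals are exact binomial and cover counting error alone, because the counts are of reads, not of molecules. The ratio step was checked on simulated data. Transcript starts come from M21, starts within 1000 bases of the next were merged into 1 group, and transcripts are named where M4 and M21 give them equal length. Shared words are 31 bases long. DESeq2 1.42.0 gave other size factors. Software was Python 3.11.15, numpy 2.4.6, pandas 2.3.3, scipy 1.17.1, matplotlib 3.10.9 and R 4.3.3.

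The rule for named genes took every member at a mean of at least 1 TPM, the 4 highest genes of the other lists, genes of the upkeep list below 1 TPM, genes overlapping a member, and leading transcripts. Phlda2 and Slc22a18, which lie below 1 TPM, were named after their values were seen.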

Additional observations from a re-analysis of the deposited data

How the results depend on the processing

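No paired analysis was possible because the series has a single group. The number of imprinted genes detected was 40 from TPM, 41 at a threshold of 0.5 TPM or with posterior mean TPM, 33 at a threshold of 5 TPM, 36 with FPKM, and 40 in each library alone. The ratio of maternally over paternally expressed RNA (log2 -2.21) was -1.47 with expected counts, which are not per length, and -2.38 without the 7 genes marked as of partial bias (Dio3, Igf2, Calcr, Trappc9, Copg2, Igf2r and Commd1). It was -2.42 without these and Ube3a, -0.63 without Nnat and -2.46 without Nnat and Meg3, all 3 chosen after seeing the data. Single libraries gave -2.28 to -2.14. The median of the maternally expressed genes (23.7 TPM) was 26.0 TPM over detected genes only and 23.5 to 23.9 TPM in single libraries, and that of the paternally expressed ones 29.5 to 42.3 TPM in single libraries. The count of genes 1.5-fold higher in replicate 1 was 2 with no count minimum, which adds Phlda2 with 6 and 2 expected counts. The count of genes 1.5-fold lower was 0 with TPM, with a count minimum of 50 and at 2-fold, since Slc22a18 then drops out. Among 17 ratios between genes of a locus, posterior mean TPM and expected counts gave 34 values, of which 14 moved by less than the SD between libraries, 19 moved further and 1 changed sign: Cdkn1c over Kcnq1ot1, log2 5.51 per length, was -0.042 in expected counts. A single library of 2 cannot move a mean by more than that SD, so those values test nothing. The summed Kcnq1 cluster, log2 5.53 per length, was -0.034 in expected counts, an alternative chosen after seeing the data. The same leading transcript was found in both libraries for 21 genes, also with shares from posterior mean TPM, for 19 of 22 at 10 TPM or more, and single libraries kept the mean leader in 22 to 23 of 25. Genes with few counts limit what can be read, in particular Phlda2, Slc22a18, Airn and Dio3.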

Other observations

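The second list holds 40 further genes reported as imprinted in some tissue, of which 36 were measured. Detection was reached by 29, beside 35.1% of all Ensembl genes and 62.1% of protein-coding genes. The list had medians of 15.3 and 19.4 TPM. Its highest genes were Cd81, a membrane tetraspanin (305 and 340 TPM), the nucleosome assembly gene Nap1l4 (264 and 250 TPM), the cell survival gene Bcl2l1 (164 and 155 TPM) and the signal peptide peptidase H13 (157 and 151 TPM). Of 35 with enough counts 13 were higher in replicate 1, beside 48.1% of all such genes. Among the 35, 1 was at least 1.5-fold higher (3.9% of all) and 3 at least 1.5-fold lower (5.04% of all).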
